A study of Mus musculus with 12 samples.

Results

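Leukocyte genes were followed in whole mouse brain to ask whether the rise of Ptprc and Plac8 without Usp18 came with transcripts of T, B or natural killer cells. The members were 7 genes listed by symbol, Ptprc, Plac8, Cd3e, Cd3g, Cd4, Cd8a and Cd2. They were found through the platform annotation as 9 of the 22690 probe sets, or 7 of the 12393 genes with a probe set of their own, Cd4 and Cd8a having 2 probe sets each. Total brain lysates of adult, untreated mice, kept free of specific pathogens, were measured on 12 Affymetrix 3' expression arrays. The 4 genotypes, with 3 arrays each, were wild type (WT), knockout of Usp18 (USP18ko), knockout of the interferon receptor gene Ifnar1 (IFNARko) and knockout of both (USP18ko:IFNARko). The labels do not give the alleles, sex, strain or exact age, nor whether a replicate is its own animal. P-values therefore cover only the spread among the arrays, and that spread may be technical. Values are log2 signals, so a difference of 1 is a doubling of signal, and the precision of each rests on 3 arrays per genotype.

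Ptprc encodes CD45, a tyrosine phosphatase on the surface of all nucleated blood cells, which in T cells keeps the kinase of the antigen receptor ready for use. Microglia, the resident macrophages of the brain, carry CD45 too, so the transcript alone does not separate resident from blood-borne cells. Plac8 encodes a small cysteine-rich protein of myeloid and lymphoid cells. Cd3e and Cd3g encode signalling chains of the T cell receptor complex, and Cd4 and Cd8a encode the coreceptors that bind class II and class I molecules on other cells. Cd2 encodes an adhesion receptor of T and natural killer cells, and its ligand in the mouse is CD48. The healthy brain holds few lymphocytes.

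The starts of the members' genes are shown because Ptprc and Plac8 moved together while Cd3e did not. RefSeq promoters (build GRCm38.p6) were matched for 5 of the 7 members, Ptprc, Plac8, Cd3e, Cd3g and Cd8a, with 7 start sites in all. The 250 bases before the most upstream start lie on the minus strand at chr1:138175306-138175555 for Ptprc, at chr5:100572206-100572455 for Plac8 and at chr9:45009612-45009861 for Cd3e. They are printed 5′ to 3′, and capitals mark the letters GGAAGT or their reverse complement, the core bound by Ets-family factors.
Ptprc: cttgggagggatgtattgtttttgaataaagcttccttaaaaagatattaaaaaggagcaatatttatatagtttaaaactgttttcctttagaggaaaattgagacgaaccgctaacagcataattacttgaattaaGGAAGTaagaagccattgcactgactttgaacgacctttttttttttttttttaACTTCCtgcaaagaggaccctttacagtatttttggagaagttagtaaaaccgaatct
Plac8: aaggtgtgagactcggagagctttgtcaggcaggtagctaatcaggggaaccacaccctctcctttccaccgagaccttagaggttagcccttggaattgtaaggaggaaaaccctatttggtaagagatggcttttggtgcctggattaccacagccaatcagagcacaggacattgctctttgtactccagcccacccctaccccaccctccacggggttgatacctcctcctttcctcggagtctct
Cd3e: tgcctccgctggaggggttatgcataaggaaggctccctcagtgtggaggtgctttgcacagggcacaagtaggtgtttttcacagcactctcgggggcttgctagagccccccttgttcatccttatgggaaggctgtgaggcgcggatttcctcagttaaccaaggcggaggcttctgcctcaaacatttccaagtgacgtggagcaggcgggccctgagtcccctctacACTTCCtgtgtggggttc
Searches ran on both strands of the 300 bases around each start, from 250 before it to 50 after it, with motifs chosen after the values were seen. The interferon-stimulated response element, searched as GAAA, any 2 bases and GAAA again, was found in 3.44% of 32851 promoters, and the gamma-activated site, searched as TTCNNNGAA, in 8.30%. Neither was found at any of the 7 member starts, which says only that these letters are not in these windows. The Ets core, which is in 23.8% of all promoters, stood at -112 and -58 before the upstream Ptprc start and at -18 before the Cd3e start, counted to its first base, and did not occur in either Plac8 window.

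The arrays were checked before the members were compared. Of 5 brain genes checked, 3 were at high signal in all 12 arrays, the synaptic gene Snap25 at 11.69 to 12.15, the myelin gene Mbp at 10.38 to 12.98 and the astrocyte gene Aqp4 at 10.17 to 10.89. The synaptic gene Syt1 ran from 6.49 to 9.36, and the astrocyte glutamate transporter gene Slc1a2 was low at 5.44 to 6.05. The Usp18 probe set read 4.04 to 4.36 in WT and 3.50 to 3.76 in the other 9 arrays. Among these the IFNARko arrays, with Usp18 intact, read 3.53 to 3.67, so this probe set did not separate the Usp18 genotypes. The Ifnar1 probe set read 7.44 to 8.21 where the receptor gene was intact and 6.24 to 6.68 where it was not. IFNARko replicate 1 stood apart, where the 3' probe set of beta-actin exceeded the 5' probe set by 1.48 on the log2 scale, a measure of RNA and labelling quality that was 0.20 to 0.54 on the other arrays. The Y-linked gene Eif2s3y was above 7 in 9 arrays and near 3 in WT replicate 1 and double knockout replicates 1 and 3. The X-linked transcript Xist was above 10 in WT replicate 1 and all 3 double knockout arrays, so sex-linked signal and genotype overlap, and results were also fitted with Eif2s3y as a covariate.

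In USP18ko brain Ptprc and Plac8 rose, and none of the 5 T cell members did. Of the 7 members 2 were called higher and 0 lower in USP18ko against WT, where limma called 143 of 12393 genes (1.15%) at an adjusted p under 0.05, and 142 (also 1.15%) were higher. The pair had been named because its rise was known from these data. In bulk tissue, more cells of a type and more RNA per cell cannot be told apart.

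Ptprc read 5.33, 5.39 and 5.32 in the 3 WT arrays and 7.21, 7.53 and 7.64 in the USP18ko arrays. Its IFNARko arrays read 6.35, 5.21 and 5.41, and its double knockout arrays 4.89, 5.32 and 4.80. Every USP18ko array was above every other array, and IFNARko replicate 1, the array that stood apart, was next. USP18ko averaged 7.46 ± 0.22 and WT 5.35 ± 0.04, with IFNARko at 5.66 ± 0.61 and the double knockout at 5.0 ± 0.28 (SD, n = 3 each). USP18ko was higher than WT by 2.12 on the log2 scale (SE 0.24, 95% interval 1.59 to 2.64, adjusted p = 2.23e-04). Among the other genotypes, in the order IFNARko, WT and double knockout, neighbours did not differ past the threshold.

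Plac8 read 5.11, 5.27 and 5.17 in WT and 8.39, 8.09 and 9.13 in USP18ko. The IFNARko arrays read 5.93, 4.41 and 4.89, and the double knockout arrays 4.76, 4.56 and 4.85. As with Ptprc, USP18ko lay above all the other arrays and IFNARko replicate 1 came next. USP18ko averaged 8.54 ± 0.53 and WT 5.18 ± 0.08, with IFNARko at 5.08 ± 0.77 and the double knockout at 4.73 ± 0.15 (SD, n = 3 each). The difference of USP18ko from WT was 3.35 (SE 0.32, 95% interval 2.66 to 4.05, adjusted p = 3.78e-05). The order below USP18ko was WT, IFNARko and double knockout, again with no difference between neighbours past the threshold.

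**Figure D1:**
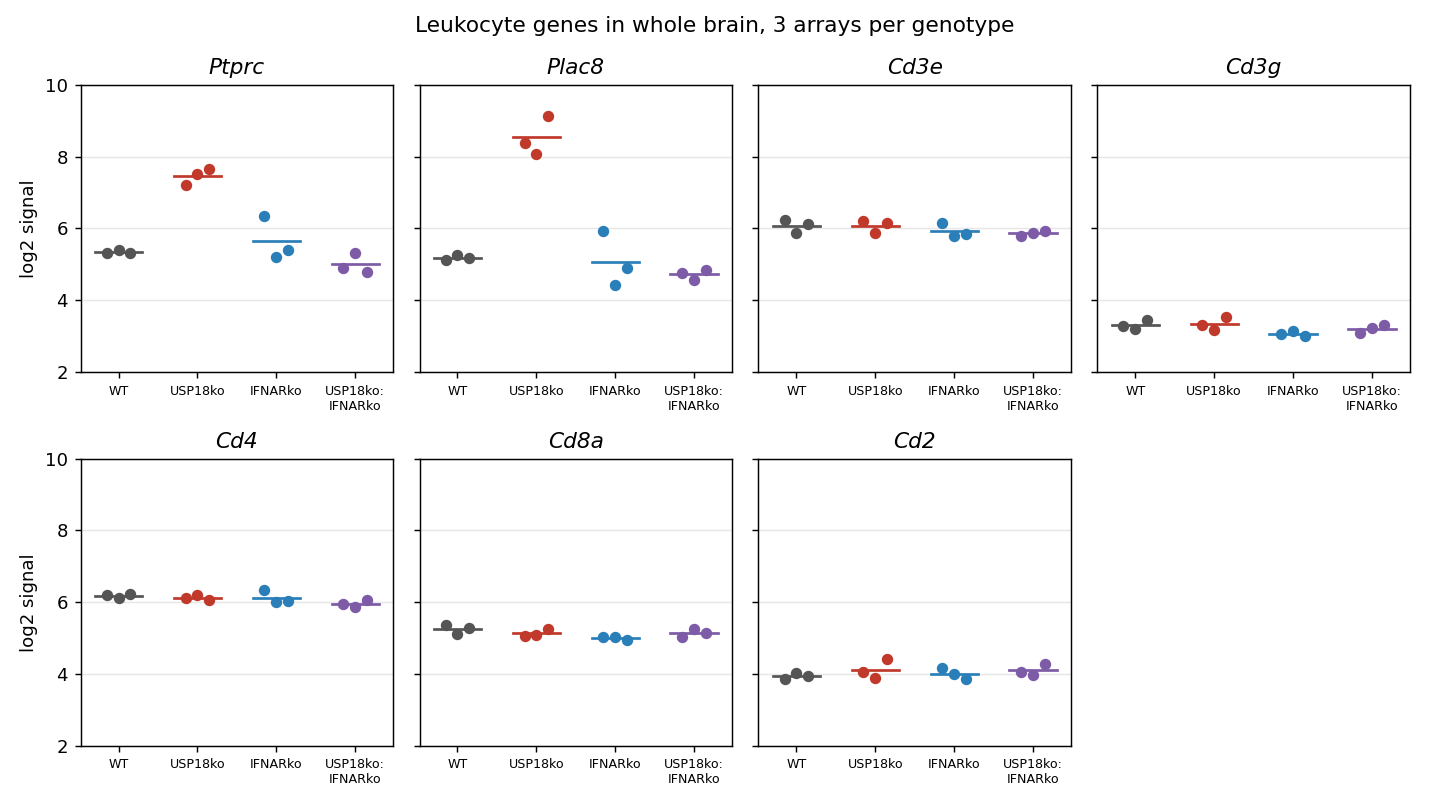
Log2 signal (vertical axes, the same in each panel) of the 7 leukocyte genes by genotype, with 1 point per array and a line at the mean of the 3 arrays. Ptprc and Plac8 are high in the 3 USP18ko arrays, IFNARko replicate 1 is next at 6.35 and 5.93, and USP18ko and WT overlap for each of the 5 T cell genes.

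The chains of the T cell receptor complex gave no such rise. Cd3e read 6.24, 5.87 and 6.13 in WT and 6.21, 5.86 and 6.16 in USP18ko. The IFNARko arrays read 6.15, 5.78 and 5.84 and the double knockout arrays 5.80, 5.87 and 5.92. WT and USP18ko covered nearly the same range, with a difference of -0.005 (SE 0.14, adjusted p = 1.00 in limma). The 95% interval of that difference, -0.30 to 0.29, does not hold a rise of the size seen for Ptprc.

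Cd3g read 3.30, 3.20 and 3.44 in WT and 3.31, 3.17 and 3.55 in USP18ko, and 3.05, 3.15 and 3.00 in IFNARko and 3.10, 3.23 and 3.30 in the double knockout. WT and USP18ko overlapped, and their difference was 0.03 (SE 0.12, 95% interval -0.22 to 0.29). The table gives no detection calls, and a level this near its lowest value of 2.36 may hold no signal of the gene.

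Both coreceptor genes were at like levels in WT and USP18ko as well. Cd4 read 6.19, 6.12 and 6.24 in WT, 6.13, 6.21 and 6.05 in USP18ko, 6.34, 5.99 and 6.03 in IFNARko, and 5.94, 5.88 and 6.07 in the double knockout. Its USP18ko arrays lay within or just below the WT range (difference -0.05, SE 0.11, 95% interval -0.29 to 0.19). Cd8a read 5.36, 5.11 and 5.29 in WT, 5.05, 5.08 and 5.27 in USP18ko, 5.04, 5.02 and 4.94 in IFNARko, and 5.03, 5.26 and 5.15 in the double knockout. It differed by -0.12 (SE 0.11, 95% interval -0.36 to 0.11) between USP18ko and WT. The second probe set of each gene gave small differences of the opposite sign, 0.10 for Cd4 and 0.04 for Cd8a, with an adjusted p of 1.00 for both in a limma fit of 20380 probe sets.

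Cd2, shared by T and natural killer cells, read 3.87, 4.02 and 3.95 in WT and 4.06, 3.88 and 4.41 in USP18ko. The IFNARko arrays read 4.17, 4.0 and 3.86 and the double knockout arrays 4.06, 3.97 and 4.28. USP18ko replicate 3 was the highest array, and the other USP18ko arrays lay in or near the WT range (difference 0.17, SE 0.14, 95% interval -0.14 to 0.47). The largest upper bound among the 5 T cell members was this 0.47, and the lower bounds of Ptprc and Plac8 were 1.59 and 2.66. All 5 T cell members read below the array medians of 6.98 to 7.07, and without detection calls such signal may be background. Cd2 averaged 4.04, and the second probe sets of Cd4 and Cd8a 4.22 and 3.86, against 6.10 and 5.13 for the first. Narrow intervals at such levels do not show that lymphocyte transcripts were absent. A p that misses the threshold does not show equal levels, and changes within these intervals could often be missed with 3 arrays per group.

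Removal of the receptor gene on the Usp18-deficient background brought both risers down. The difference of the double knockout from USP18ko was -2.46 for Ptprc (SE 0.24, adjusted p = 4.35e-05) and -3.81 for Plac8 (SE 0.32, adjusted p = 8.92e-06), with no overlap between the arrays. These were 2 of the 7 members, where 1.51% of all genes were called. The 5 T cell members differed by -0.21 for Cd3e, -0.13 for Cd3g, -0.17 for Cd4, 0.02 for Cd8a and -0.01 for Cd2, with none past the threshold. This comparison shares its USP18ko arrays with the one against WT, and the double knockout arrays carried high Xist while the USP18ko arrays did not. With Eif2s3y as a covariate both calls held. That fit cannot separate Xist from genotype here, because double knockout replicate 2 had both Eif2s3y (7.16) and Xist (10.34) high.

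The effect of Usp18 loss differed with the receptor's genotype for the same pair. The interaction, which is the double knockout minus IFNARko difference less the USP18ko minus WT difference, was -2.77 for Ptprc (SE 0.34, adjusted p = 8.05e-04) and -3.71 for Plac8 (SE 0.45, adjusted p = 7.12e-04). Limma called 0.847% of all genes for it. Its USP18ko minus WT term is the rise by which the pair was named, so these p-values are no separate support. Xist was high in the double knockout arrays and low in the USP18ko and IFNARko arrays, so sex-linked signal enters this contrast too. Among the T cell members the interaction ran from -0.10 for Cd4 to 0.27 for Cd8a and did not pass.

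**Figure D2:**
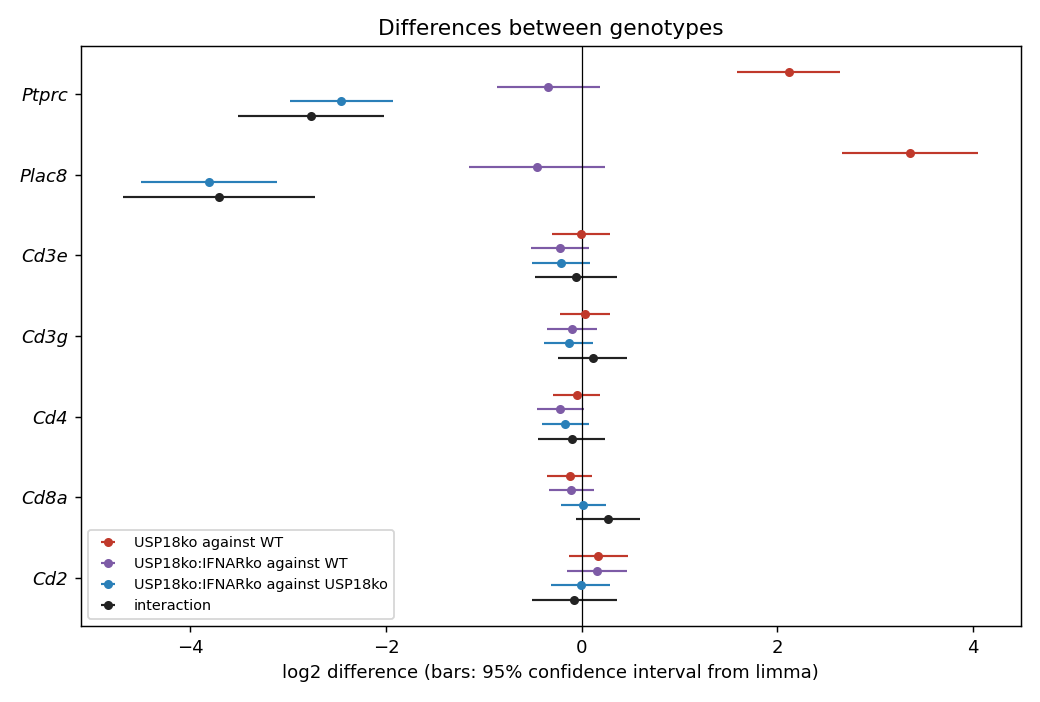
Log2 differences (horizontal axis) of the 7 genes in 4 comparisons, with limma's 95% confidence interval as bars. Ptprc and Plac8 lie to the right of 0 for USP18ko against WT, at 2.12 and 3.35, and to the left for the double knockout against USP18ko and for the interaction, while the intervals of the 5 T cell genes all include 0.

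Without the receptor, loss of Usp18 gave no call among the members. In the double knockout against IFNARko Ptprc differed by -0.66 (SE 0.24, adjusted p = 0.566) and Plac8 by -0.35 (SE 0.32, adjusted p = 0.681). Limma called 0 genes (0%) of all those tested in this comparison at an adjusted p under 0.05, with 1022 at an unadjusted p under 0.05. Without IFNARko replicate 1 the differences were -0.31 for Ptprc and 0.07 for Plac8. Here too the double knockout arrays carried high Xist and the IFNARko arrays did not.

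Loss of the receptor gene alone gave no member call either, with 0.00807% of all genes called. IFNARko minus WT was 0.31 for Ptprc (SE 0.24, adjusted p = 0.629) and -0.10 for Plac8 (SE 0.32, adjusted p = 0.912), and -0.04 and -0.53 without IFNARko replicate 1. The double knockout minus WT was -0.34 for Ptprc (SE 0.24, adjusted p = 0.995) and -0.46 for Plac8 (SE 0.32, adjusted p = 0.995), with 0.0161% of all genes called. For Ptprc, Plac8 and Cd4 all 3 double knockout arrays read below all 3 WT arrays, for Ptprc by less than the second decimal. The groups were apart in this direction for 10.3% of all genes.

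The T cell list was then read as a whole beside its 5 members. Of 22 listed T cell genes 19 were measured and 0 were called in USP18ko against WT, where 1.15% of all genes were called. At that share a list of this length often holds no call. The median difference of the list was -0.05, beside -0.02 over all genes. Differences ran from -0.28 to 0.17. Cd3d and Cd247, further chains of the receptor complex that were named after their values were seen, differed by 0.15 and -0.07. Zap70, a kinase that binds the activated receptor, had the highest signal of the list and differed by -0.15 (SE 0.15). The mean log2 signal of the list was 4.53 to 4.67 in the WT arrays, 4.44 to 4.66 in USP18ko, 4.39 to 4.64 in IFNARko and 4.47 to 4.55 in the double knockout, so all 4 genotypes overlapped. WT and USP18ko did not overlap for 2 of the 19 genes, both lower in USP18ko, where 9.95% of all genes did not overlap. As with the members, list means this low may be largely background, here and in the B cell and natural killer lists below.

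B cell genes showed 1 call in USP18ko against WT, where 1.15% of all genes were called. Of 20 listed genes 18 were measured, with a median difference of 0.03 in USP18ko against WT. The gene called was Cd72, an inhibitory coreceptor first known from B cells, which rose by 1.08 (SE 0.18, adjusted p = 0.00607). Its arrays read 5.15, 4.94 and 5.35 in WT against 5.94, 6.26 and 6.50 in USP18ko, and its double knockout arrays at 4.99, 4.76 and 5.02 were again low. The antigen receptor chains Cd79a and Cd79b differed by -0.10 and 0.17, and Ms4a1, which encodes CD20, by 0.13, with an adjusted p of 1.00 in limma for each. The antibody heavy chain gene Ighm differed by 0.32 (SE 0.16) and the adaptor gene Blnk by 0.47 (SE 0.25), and neither passed. The list's mean signal was 4.49 to 4.50 in WT and 4.50 to 4.71 in USP18ko, apart only in the third decimal.

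Natural killer and cytotoxic lymphocyte genes gave no call in USP18ko against WT, where 1.15% of all genes were called. At that share a list of this length often holds no call. Of 19 listed genes 17 were measured, and their median difference was 0.04, with a range of -0.50 to 0.32. Klrd1 and Ncr1, receptors of natural killer cells, differed by -0.02 and -0.05, and Nkg7, a granule protein gene, by 0.11. The genes of highest signal were Eomes (-0.22), a transcription factor, Prf1 (0.05), which encodes perforin, and Ctsw (0.12), a cathepsin of cytotoxic cells. Eomes averaged 7.76 over the arrays, well above the list's means, and which brain cells gave that signal was not tested. The list's mean signal was 4.53 to 4.71 in WT and 4.47 to 4.65 in USP18ko, ranges that overlap. In the double knockout against USP18ko, where 1.51% of all genes were called, the list again had 0 calls, as did the T cell list. Cd72 was the 1 B cell gene called there, and it was lower.

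**Figure D3:**
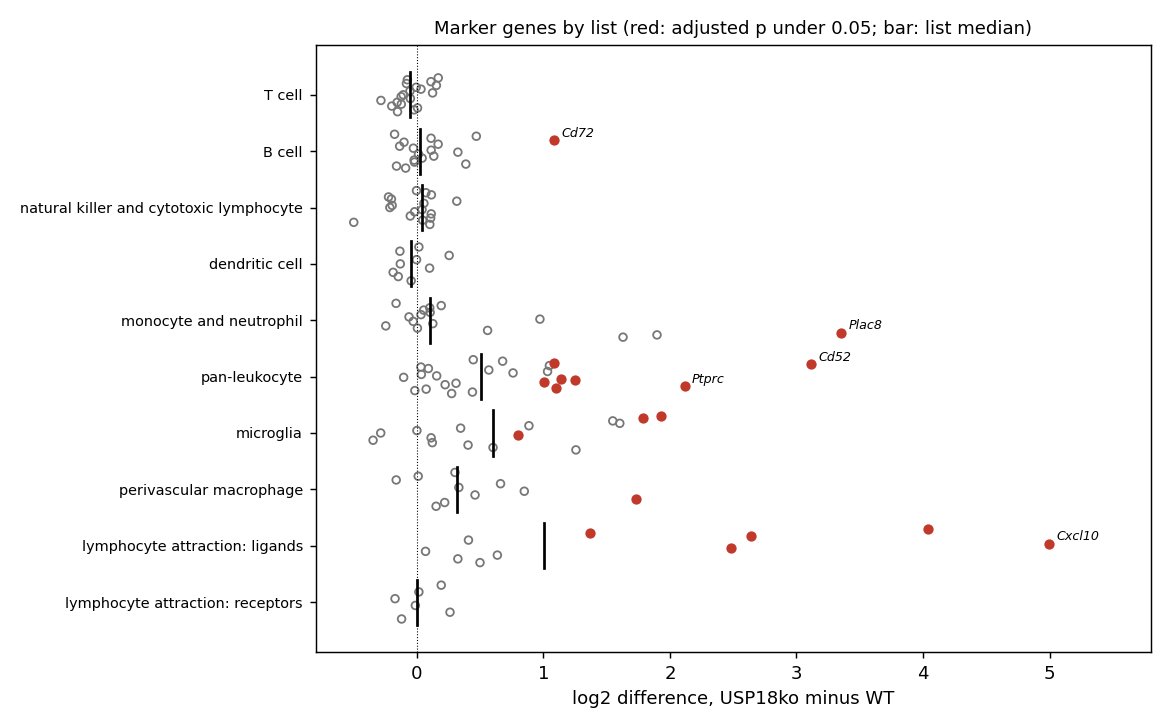
Log2 difference of USP18ko minus WT (horizontal axis) for each measured gene of 10 lists, with genes called by limma in red and a bar at each list's median. The T cell and natural killer lists hold no red point and the B cell list holds Cd72 alone, while Plac8, Ptprc, Cd52 and Cxcl10 lie far to the right in other lists.

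Signalling genes of the T cell receptor, the pathway in which CD45 acts, did not move with Ptprc as a group. Of 20 listed genes 16 were measured, and 2 were called in USP18ko against WT, where 1.15% of all genes were called. The 2 were Ptprc itself and Lcp2, an adaptor used by T cells and myeloid cells alike. The list's median difference was -0.08. Fyn, Csk and Bcl10, named with their values known, averaged 10.68, 9.11 and 8.58 over the arrays. Which brain cells gave those signals was not tested, so the list is not a reading of T cells alone. Lcp2 rose by 0.54 (SE 0.11, adjusted p = 0.0338). This call did not hold with the mean of its probe sets (0.24) and in 12 other alternatives, among them the fits without WT replicate 2 or 3, without any single USP18ko array or double knockout array, or without IFNARko replicate 2 (0.46 to 0.59).

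Among genes that most or all leukocytes share, and that myeloid cells carry too, 7 of 24 were called higher in USP18ko against WT. Ptprc was among them, and over all genes 1.15% were called higher. All 24 listed genes were measured, their median difference was 0.51, and 22 of them differed upward. The USP18ko arrays lay wholly above WT for 14 and wholly below for 0, where 9.95% of all genes did not overlap in either direction. Among the 17 that did not pass, Coro1a (0.03) and Ikzf1 (0.04) moved little. Cd53 (1.05) and Fermt3 (1.03), also not past the threshold, differed by as much as some called genes. Cd52, a small surface glycoprotein gene, rose by 3.12 (SE 0.22, adjusted p = 2.02e-06), from 5.20, 5.98 and 5.80 in WT to 8.53, 8.71 and 9.09 in USP18ko. Laptm5, a lysosomal membrane protein gene, rose by 1.25 (adjusted p = 0.00673, and 0.0634 in a fit of the compared groups alone), the integrin chain gene Itgb2 by 1.14, the GTPase gene Rac2 by 1.10 and the actin-bundling gene Lcp1 by 1.00. Cd48, the ligand of CD2, rose by 1.08 (SE 0.20, adjusted p = 0.0153). It missed the threshold in 6 of 22 alternatives, among them the fits without WT replicate 1 or 3 or USP18ko replicate 2 or 3 (0.86 to 1.11). The integrin chain gene Itgal, whose product pairs with that of Itgb2 on lymphocytes and which was singled out with its value known, differed by -0.10. The list's mean signal was 5.69 to 5.96 in WT and 6.42 to 6.65 in USP18ko, which do not overlap.

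Monocyte and neutrophil genes, the list that holds Plac8, had that single call among 16 measured of 19, with a median difference of 0.10. Over all genes 1.15% were called. The USP18ko arrays lay wholly above WT for 7 of the 16 genes and wholly below for 0, where 9.95% of all genes did not overlap in either direction. The calprotectin genes S100a8 and S100a9, of neutrophils and monocytes, were named after their values were seen. S100a8 read 4.04, 3.72 and 3.92 in WT and 5.88, 6.58 and 4.91 in USP18ko (difference 1.90, SE 0.47, adjusted p = 0.112). S100a9 read 4.43, 4.39 and 4.27 in WT and 5.73, 6.70 and 5.55 in USP18ko (difference 1.63, SE 0.39, adjusted p = 0.0894). Double knockout replicate 3 read 5.84 and 6.26 for the same genes, against 3.93 to 4.73 in the other double knockout arrays. The list had 3 calls without that array and 2 without USP18ko replicate 2, USP18ko replicate 3 or IFNARko replicate 1. Ccr2, the chemokine receptor gene of inflammatory monocytes, likewise singled out, differed by 0.19 (SE 0.15). Neutrophil granule genes Mpo and Elane, named in the same way, differed by 0.005 and -0.06.

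Some genes of brain macrophages were called higher together with Ptprc and Plac8, and their part in those rises was not tested. Of 15 measured microglia genes of 18 listed, 3 were called higher in USP18ko, Aif1 by 1.93 (SE 0.29, adjusted p = 0.00205), the complement gene C1qa by 1.79 (SE 0.36, adjusted p = 0.0232) and the integrin chain gene Itgam by 0.80 (SE 0.14, adjusted p = 0.00909). The other 12 did not pass, among them Cx3cr1 (0.35) and P2ry12 (-0.35), receptor genes of resting microglia. The complement genes C1qb (1.55) and C1qc (1.60) did not pass either. Over all genes 1.15% were called higher. The list's median difference was 0.60, and 13 of the 15 genes differed upward. USP18ko lay wholly above WT for 6 and wholly below for 0, where 9.95% of all genes did not overlap in either direction. The count of called genes was 7 without WT replicate 2 and 1 without WT replicate 3. The call of C1qa was also lost without USP18ko replicate 2 (1.57) or USP18ko replicate 3 (1.85), and C1qa and Itgam lost theirs without WT replicate 3 (1.86 and 0.77) and with only the groups compared (adjusted p = 0.178 and 0.0790). Itgam also lost its call with array weights (adjusted p = 0.0868). The microglia list had a mean signal of 6.44, 7.54 and 7.09 in the WT arrays and 7.42, 8.04 and 7.76 in the USP18ko arrays, which overlap. Of 10 perivascular macrophage genes, all measured, 1 was called higher, Ms4a7, by 1.74 (SE 0.15, adjusted p = 1.11e-05).

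**Figure D4:**
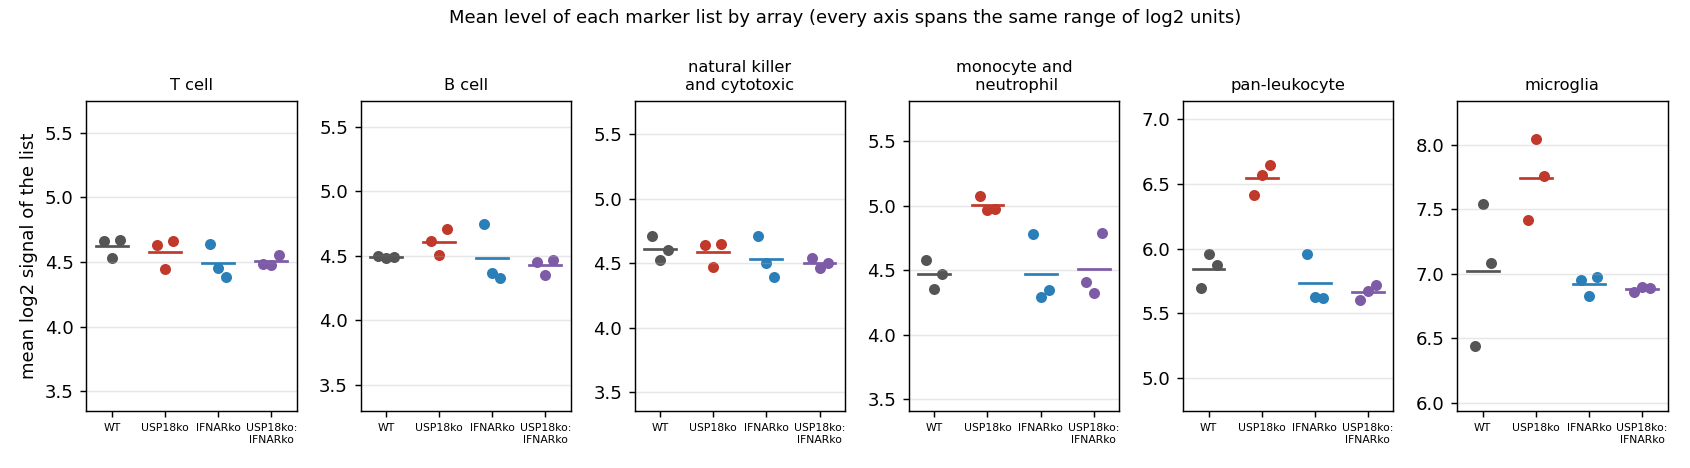
Mean log2 signal over the measured genes of 6 lists (vertical axes, each spanning the same number of log2 units) by genotype, with 1 point per array and a line at the mean of 3 arrays. The USP18ko arrays stand above WT for the pan-leukocyte list (6.42 to 6.65 against 5.69 to 5.96) overlap WT for the T cell and natural killer lists, and lie at 4.50 to 4.71 against 4.49 to 4.50 for the B cell list.

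Among chemokines that attract lymphocytes and monocytes 5 of 10 measured genes were called higher, where 1.15% of all genes were. No receptor gene of the matching list was called, and at that share a list so short often holds no call. Of 12 listed ligands, those called higher in USP18ko against WT were Cxcl10 by 5.0, Ccl12 by 4.04, Ccl5 by 2.64, Cxcl11 by 2.49 and Ccl2 by 1.37, with a list median of 1.00. Cxcl9 (0.50), Ccl7 (0.41), Cxcl13 (0.64), Cxcl16 (0.32) and Cxcl12 (0.07) did not pass. Of 7 listed receptors 6 were measured, 0 were called and the median difference was 0.003. Cxcr3, the receptor of Cxcl10 and Cxcl11 on activated T and natural killer cells, named with its value known, read 5.18, 4.76 and 5.07 in WT and 5.05, 4.59 and 4.85 in USP18ko. Its difference was -0.17 (SE 0.17, 95% interval -0.54 to 0.20). Cxcl10 read 3.94, 4.04 and 3.78 in WT and 9.42, 8.77 and 8.57 in USP18ko. Among 11 measured adhesion genes of 12 listed, Icam1, an endothelial and leukocyte adhesion molecule gene, rose by 1.34 (SE 0.19, adjusted p = 0.00168) beside Itgb2, whose product forms its receptors.

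Blood content and dendritic cells were read from lists of their own. Over all genes 1.15% were called in USP18ko against WT, so lists this short often hold no call. Of 6 measured red cell and platelet genes of 10 listed, 0 were called in USP18ko against WT (median 0.05), and the list's mean signal was 5.53 to 5.57 in WT and 5.44 to 5.83 in USP18ko. Of 9 measured dendritic cell genes of 10 listed, 0 were called (median -0.04).

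The genes whose pattern over the 12 arrays was most like that of Ptprc and Plac8 were found by Pearson's correlation. As a description over arrays that share their genotypes, the nearest to Ptprc were Igtp (0.979), Irgm1 (0.975), Ms4a6b (0.975), Ifih1 (0.970) and Iigp1 (0.970). Nearest to Plac8 were Gbp7 (0.993), Apobec1 (0.990), Parp14 (0.989), Irgm1 (0.988) and Ifi47 (0.985). Igtp, Irgm1 and Iigp1 are immunity-related GTPase genes, Gbp7 is a guanylate-binding protein gene and Ifih1 encodes a sensor of double-stranded RNA. All 9 of these genes were called higher in USP18ko against WT, which their choice by likeness to Ptprc or Plac8 over the same arrays largely fixed. Ptprc and Plac8 correlated at 0.964 with each other, which made Plac8 number 11 for Ptprc and Ptprc number 53 for Plac8. Of these 9 genes 7 had a RefSeq promoter in the table, and 4 of the 7, Igtp, Irgm1, Ifih1 and Gbp7, held the interferon-stimulated response element, which was not found in the windows of Ptprc and Plac8 shown above.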

How the data were processed

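Whole-brain RNA was measured in 12 samples of 4 genotypes on 1-colour Affymetrix 3' arrays. The authors deposited 1 log2 signal for each probe set and array. Per the submitters' processing notes the affy package of R was used. Its version and the background, normalization and summary methods were not given in the sources used here. Base 2 was inferred from values of 2.36 to 13.81 with array medians of 6.98 to 7.07.

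Of 22690 probe sets 20380 had 1 gene in the platform annotation, 691 several and 1555 no entry, and 64 were controls. Each gene took its probe set with the highest mean, giving 12393 genes. Limma 3.58.1 (R 4.3.3) fitted genotype over all 12 arrays (8 residual and 4.67 prior degrees of freedom). Tests were two-sided, and Benjamini-Hochberg adjusted p-values under 0.05 over all genes were called. An exact test of 3 against 3 arrays cannot go below 0.1.

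The members and lists were chosen with earlier results of these data known. There were 13 lists with 189 genes, 23 of them not measured. Lists are described by counts and medians. Named are all members, the genes of a list called in USP18ko against WT, the 3 lymphocyte genes of highest signal per list, defining B and natural killer genes, the 5 genes most like Ptprc and Plac8, and genes said to be named with their values known. On simulated data with 12393 genes, 200 of them changed, the test for USP18ko against WT recovered 35.2% of log2 changes of 0.5, 86.4% of those of 1 and 98.8% of those of 2. Of the genes it called, 5.66% were unchanged ones.

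Alternatives were other uses of probe sets, a filter on low signal, further normalization, array weights, a trended variance, a block on replicate number, a fit of the compared groups alone, Eif2s3y as a covariate and each array left out. Leaving out IFNARko replicate 1 and double knockout replicate 2 together was chosen after seeing the data. Same-numbered arrays deviated together with correlations of -0.148 to 0.273 over 18 pairs, so the numbers were not taken to pair samples.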

Additional observations from a re-analysis of the deposited data

Results flagged for a closer look

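The effect of Usp18 loss on Ptprc and on Plac8 differed between mice with and without the receptor gene. The interaction was -2.77 for Ptprc (SE 0.34, adjusted p = 8.05e-04 in limma) and -3.71 for Plac8 (SE 0.45, adjusted p = 7.12e-04). With the receptor gene USP18ko exceeded WT by 2.12 and 3.35, in all 3 arrays, and without it the double knockout minus IFNARko difference was -0.66 and -0.35. IFNARko replicate 1 enters these values and read highest of its group for both genes. The USP18ko minus WT term is the rise by which the pair was named, so these p-values are no separate support. Xist was high in the double knockout arrays and low in the USP18ko and IFNARko arrays, so sex-linked signal enters the interaction too. No other member was called for the interaction.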

How the results depend on the processing

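For the 7 members every call, and every lack of one, was the same under all alternatives that gave a value, 917 values in all. Over these, USP18ko minus WT ran from 2.03 to 2.24 for Ptprc and from 3.06 to 3.58 for Plac8, and the interaction from -3.00 to -2.41 and from -4.04 to -3.20, with highest adjusted p-values of 0.0397 and 0.0224, both with the Eif2s3y covariate. Differences past the threshold on neither side changed sign in 43 values. The filter at the 40th percentile of mean signal (6.72) left out all 7 members, so it gave them no value. The counts of called T cell and natural killer genes in USP18ko against WT were 0 under every alternative run. The B cell count was 1 under each except the low-signal filter, which left out every B cell gene.

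Counts over all genes moved more. With the low-signal filter limma called 28 genes in place of 143 for USP18ko against WT, 37 in place of 187 for the double knockout against USP18ko, 20 in place of 105 for the interaction and 0 in place of 2 for the double knockout against WT. Array weights gave 500 for the double knockout against USP18ko, 814 in place of 0 for the double knockout against IFNARko and 2 in place of 1 for IFNARko against WT. With only the groups compared these 3 counts were 287, 2 and 0. The Eif2s3y covariate gave 124 for the double knockout against USP18ko, 51 for the interaction and 1 for the double knockout against WT. Testing each probe set gave 3 genes for IFNARko and 0 for the double knockout against WT, and for the latter quantile normalization gave 1 and median centring 0. With the replicate block both of these counts were 0. The numbers were not taken to pair the samples, and 5 of 12 arrays deviated most like their own number. With so few arrays that check cannot decide whether the samples were paired. Without IFNARko replicate 1 and double knockout replicate 2 the counts were 3 for IFNARko against WT, 1 for the double knockout against WT and 1 for the double knockout against IFNARko. Leaving out 1 array gave 0 to 5, 0 to 3 and 0 to 3 for these comparisons. Apart from the filter and the other settings built to use fewer genes or samples, the cause was not tested.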

Other observations

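IFNARko replicate 1, the array with the high beta-actin difference, also read above the other arrays of its genotype for genes that follow Ptprc and Plac8. Igtp read 7.51 there and 5.65 and 5.48 in IFNARko replicates 2 and 3, Iigp1 read 5.72 against 3.94 and 3.93, and Ms4a6b read 6.35 against 5.42 and 5.37. The leukocyte genes Cd53 and Fermt3 read 8.01 and 7.07, against 6.92 and 7.02 and 6.16 and 6.19. Other genes of their list went the other way. Hcls1, Cd37 and Coro1a read 3.71, 4.45 and 9.57 in replicate 1, each the lowest of its genotype. The mean of the pan-leukocyte list was 5.96 there, against 5.63 and 5.62. The T cell list had a mean signal of 4.64 in that array and 4.46 and 4.39 in the other pair, and the B cell list 4.75 against 4.37 and 4.32. These genes were named after their values were seen, and no comparison was tested.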
